A study of Mus musculus with 10 samples.

Results

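Male mouse embryonic stem cells (mESCs) kept by 2 culture methods were compared at the point where both had spent the same number of days in culture. The 4 libraries of this comparison, of 10 in the series, were 2 of Keniry2022 at passage 20 (p20) and 2 of Mulas2019 at passage 10 (p10), chosen by their labels alone. The study derived 2 lines of C57/Bl6 male mESCs under its own method, split each in 2 at passage 0, and carried both portions forward. Both portions were fed 2i medium with LIF, in which 2 kinase inhibitors and a cytokine hold mESCs in the naive state. Keniry2022, called New or Off in the labels, grows the cells without an attachment substrate and passages them every day. By the study's description it also uses a higher plating density, larger volumes of medium and plates not treated for tissue culture. Mulas2019, called Old or On, grows them on gelatin and leaves a longer interval between passages, so p20 of the first and p10 of the second fall on the same day by the study's own reckoning. Days are matched and passages are not, hence method and passage number cannot be told apart within these 4 libraries. Each group held 1 library of each line, and the lines are the replicates. The study describes the loss of the Y chromosome from a line during derivation.

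Naive mESCs correspond to the cells of the early inner cell mass and depend on a network of transcription factors around Oct4 (Pou5f1), Sox2, Nanog and Esrrb. They divide quickly, so ribosome production, respiration and protein turnover make up a large share of their RNA. Cells that run short of amino acids or oxygen, or whose protein folding is disturbed, switch on further programmes, among them the integrated stress response through the transcription factor ATF4 and the hypoxia response through HIF.

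The 4 libraries held an estimated total of between 24240641 and 30236823 reads. The values are log2 RPKM, that is, reads scaled by exon length and library size. This allows a rough comparison of levels between genes, but not for genes whose reads may be shared with copies or overlapping features. The 9 defining mESC markers summed to between 3130 and 3240 RPKM in the Keniry2022 p20 libraries and between 2860 and 2900 RPKM in the Mulas2019 p10 libraries. No marker of primitive endoderm (9 listed), of fibroblasts or feeders (8 listed) or of 2-cell-like cells (8 found in the table) passed the filter on low values. Trophoblast markers summed to 26.6 and 28.1 RPKM under Keniry2022 p20 against 37.4 and 38.5 RPKM under Mulas2019 p10, and neural markers, of which only Tubb3 was tested, to 85.8 and 96.5 against 56.3 and 59.5 RPKM. These marker sums moved with the groups compared and their part in the results was not tested. Fewer cells of a type and less RNA per cell cannot be told apart in bulk samples. The 4 Y-linked genes Ddx3y, Eif2s3y, Kdm5d and Uty summed to 49.6 RPKM in replicate 1 and 0.361 RPKM in replicate 2 of Keniry2022 p20, but to 0.376 and 40.6 RPKM in replicates 1 and 2 of Mulas2019 p10. Replicate 2 was the Y-expressing library in the other 4 groups, so the labelled numbers of Keniry2022 p20 run opposite to the rest. The comparison of the groups does not use the numbers.

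Of 11654 features tested with limma, 5060 differed between Keniry2022 p20 and Mulas2019 p10 at an adjusted p under 0.05, which is 43.4% of all tested. Of these, 2644 (22.7%) were higher and 2416 (20.7%) lower under Keniry2022 p20. Most differences were small. The median size among called features was 0.34 on the log2 scale, and 3719 of them (73.5%) were below 0.5. Only 252 features (2.16%) were both called and at least 2-fold apart, 107 higher (0.918%) and 145 lower (1.24%). Of those 252 features, 29 had a mean of at least 3 log2 RPKM. In the model with all 10 libraries, whose p0 pair is far more spread, 743 features (6.43% of those tested there) were called. The p0 libraries, which are not part of this comparison, were left out of the main fit with that spread already known from an earlier analysis. All 740 of these that were also tested here were among the 5060. The counts therefore depend on how the spread is estimated, and counts from both models are given for the gene groups that follow. Lists are described over the members that passed the filter on low values. Counts of called members are to be read against the 22.7% higher and 20.7% lower of all features tested. Among list members, 8 passed only through the method where they are high and so had to differ: Fgf21, Itgb4, Anxa1, Dmrtb1, Hspa4l, Myc, Tcf7l2 and Hist3h2a. Their values are given as description, but they remain in the counts, medians and shares of their lists. Tcf7l2 is the only lower WNT target, and Dmrtb1 is among the lower germline genes.

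**Figure D1:**
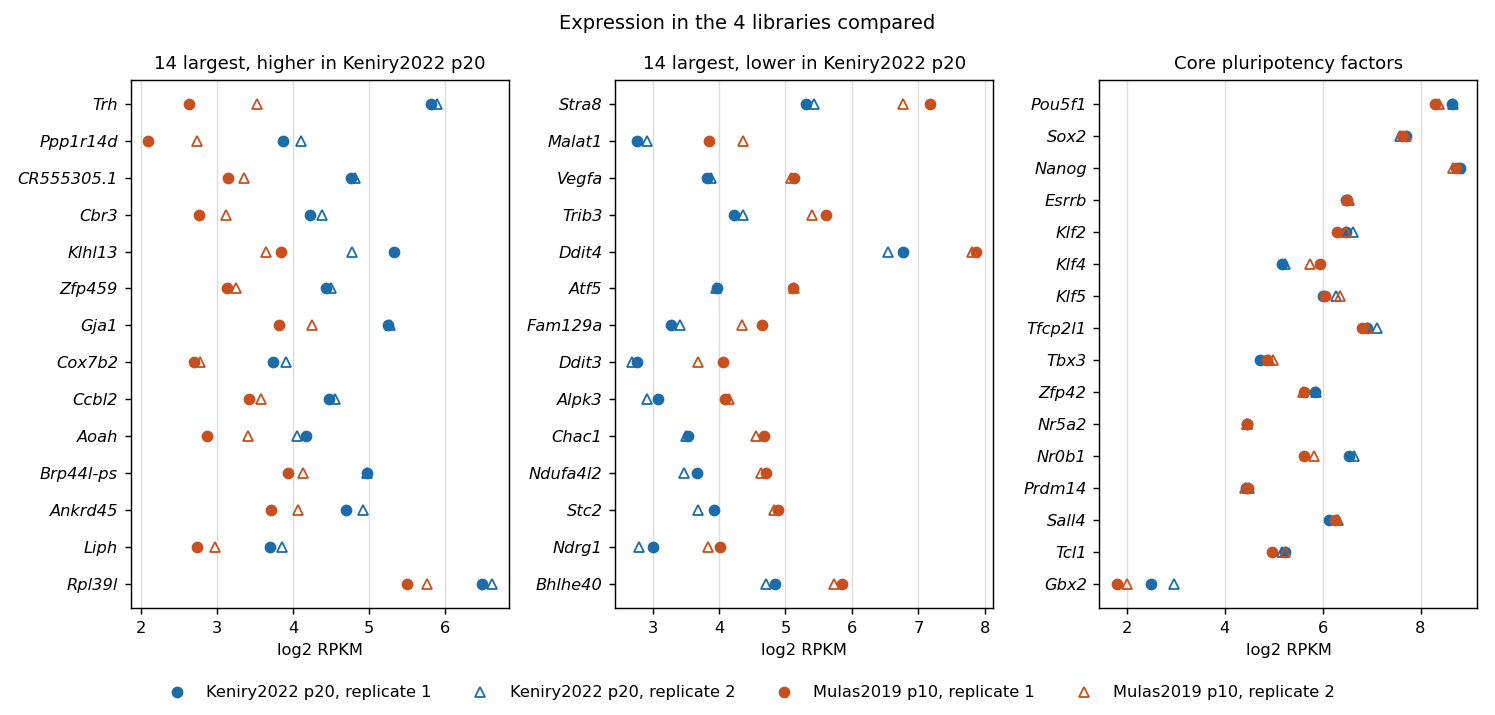
Log2 RPKM (x axis) in each of the 4 libraries, blue for Keniry2022 p20 and orange for Mulas2019 p10, circles for replicate 1 and triangles for replicate 2. The left and middle panels show the 14 largest called differences in each direction among genes with a mean of at least 3 log2 RPKM and the right panel core pluripotency factors. Genes of the left and middle panels were chosen to have no overlap between the groups. In the right panel, not chosen in this way, the colours separate widely for few genes.

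Among genes with a mean of at least 3 log2 RPKM, the largest rise belonged to Trh, the precursor of thyrotropin-releasing hormone, which also marks naive mESC cultures. It stood at 5.82 and 5.90 log2 RPKM in the Keniry2022 p20 libraries and at 2.63 and 3.52 in the Mulas2019 p10 libraries. The difference was 2.78 ± 0.29 (log2, SE; adjusted p = 0.000503), a 6.89-fold change. Trh also had a wide gap between the 2 Mulas2019 libraries, but neither came near the Keniry2022 values. Ppp1r14d, an inhibitor of protein phosphatase 1, was 1.58 ± 0.24 higher, with 3.87 and 4.11 against 2.09 and 2.73 log2 RPKM. Cbr3, a carbonyl reductase of the NRF2 antioxidant programme, stood at 4.23 and 4.39 against 2.76 and 3.11 log2 RPKM, a difference of 1.37 ± 0.12. Gja1, which encodes the gap junction protein connexin 43, was 1.23 ± 0.14 higher. The X-linked ubiquitin ligase adaptor Klhl13 was 1.31 ± 0.17 higher, and its 2 Keniry2022 values, 5.33 and 4.78 log2 RPKM, differed from each other more than its 2 Mulas2019 values of 3.84 and 3.65.

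The other named genes with the largest rises were CR555305.1 (1.54), the zinc finger gene Zfp459 (1.27), the cytochrome c oxidase subunit Cox7b2 (1.09), Ccbl2 (1.01), Aoah (0.98), Brp44l-ps (0.94), Ankrd45 (0.92), the lipase Liph (0.92) and Rpl39l (0.92), a paralogue of the ribosomal protein Rpl39. All 14 were called when any 1 of the 8 cultured libraries was left out, and 11 were called in the 10-library model. Ccbl2, Brp44l-ps and Ankrd45 overlap another feature, which leaves their reads uncertain. Another 2 features with predicted names had differences as large.

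The largest fall at this level was that of Stra8, a gene of meiotic entry whose promoter is silenced by DNA methylation in many cell types. Stra8 stood at 5.31 and 5.43 log2 RPKM under Keniry2022 p20 and at 7.18 and 6.76 under Mulas2019 p10, a difference of -1.60 ± 0.17 (adjusted p = 0.000585), or 3.03-fold. Vegfa, the vascular growth factor and a classical HIF target, stood at 3.82 and 3.88 against 5.12 and 5.08 log2 RPKM, a difference of -1.25 ± 0.06. The nuclear noncoding RNA Malat1 was lower by -1.27 ± 0.15, with 2.76 and 2.91 against 3.85 and 4.37 log2 RPKM.

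Of the remaining genes with the largest falls, Trib3 (-1.21), Ddit4 (-1.18), Atf5 (-1.16), Ddit3 (-1.15), Chac1 (-1.10) and Stc2 (-1.06) belong to the list of ATF4 targets described next, and Ndufa4l2 (-1.10) and Bhlhe40 (-1.01) to the HIF list. The others were Fam129a (-1.15), Alpk3 (-1.13) and Ndrg1 (-1.03). All 14 were called with any 1 library left out and 12 in the 10-library model, the exceptions being Ndrg1 and Bhlhe40. Of the 14, 7 overlap another feature, Malat1, Atf5 and Ddit3 among them. Another 3 features with predicted names fell as far.

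ATF4 targets had the lowest median of the 40 gene lists. ATF4 is translated when the kinases of the integrated stress response slow general translation, and it then switches on genes for amino acid uptake and synthesis together with stress regulators. Of 37 members tested, 34 were lower under Keniry2022 p20 and 1 was higher, the cationic amino acid transporter Slc7a3 (0.44). The median difference of the list was -0.67, against 0.0086 over all features tested. In the 10-library model 25 members were lower and 1 higher. The list holds 6 members of the serine and folate list given further on, so the groups are not separate observations.

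Among stress regulators, Trib3, a pseudokinase that feeds back on ATF4, stood at 4.23 and 4.35 log2 RPKM against 5.60 and 5.39. Ddit3, which encodes the transcription factor CHOP, stood at 2.76 and 2.70 against 4.06 and 3.69. Atf5, a translationally controlled relative of ATF4, stood at 3.97 and 3.95 against 5.11 and 5.14. Chac1, a glutathione-degrading enzyme, stood at 3.54 and 3.50 against 4.68 and 4.56. Trib3, Ddit3, Atf5 and Chac1 are among the named genes chosen to have no overlap between the groups, so their separation was fixed by that choice. Over the list, both Keniry2022 p20 libraries lay below both Mulas2019 p10 libraries in 35 of the 37 members. The same held in 35.4% of all features tested. Gdf15, a secreted stress cytokine, was 1.21 lower, and the mTORC1 inhibitor Ddit4 was 1.18 lower, from 7.87 and 7.81 log2 RPKM under Mulas2019 p10. The hepatokine gene Fgf21 had the widest difference of the members that passed, -2.58 ± 0.40, at low levels of -1.90 and -2.45 against 0.71 and 0.09 log2 RPKM. Atf4 itself was only 0.26 ± 0.06 lower (7.55 and 7.63 against 7.91 and 7.79, adjusted p = 0.0106), and it was not called in the 10-library model or without replicate 1 of either group.

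Genes of amino acid uptake and synthesis were lower too. The neutral amino acid transporters Slc1a5 and Slc1a4 were each 0.76 lower, and Slc1a5, with 5.37 and 5.40 against 6.18 and 6.12 log2 RPKM, had the smallest p of the list (adjusted p = 0.000142). Aldh18a1 and Pycr1, enzymes of proline synthesis, were 0.78 and 0.57 lower. Psat1 (-0.36), Phgdh (-0.38) and Psph (-0.52), which make serine, and Asns (-0.35), which makes asparagine, fell by less. Of the 3 members with no fall, Eif4ebp1 differed by -0.03 and Cth by 0.01.

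The composite site bound by ATF4 with C/EBP partners can be written TGATGNAA, and it was searched on both strands of the 250 bases before the outermost RefSeq start of each gene (GRCm38.p6, the same coordinates as mm10). It was present in 6 of the 31 ATF4 list members that matched the promoter table (19.4%) in 3.53% of all 27025 genes of that table and in 1.85% of the tested features that matched it. The list is named for ATF4, so its members were chosen in part because such sites are known, and a match is a description of letters only. The 6 stretches are shown because each belongs to a gene that was lower under Keniry2022 p20, written 5′ to 3′ on the strand of the gene with up to 20 bases on each side and the match in capitals, TTNCATCA where it lies on the other strand.
Chac1 (chr2:119351029-119351076, plus strand, 193 bases before the start): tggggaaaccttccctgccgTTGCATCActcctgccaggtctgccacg
Nupr1 (chr7:126625553-126625600, minus strand, 110 bases before the start): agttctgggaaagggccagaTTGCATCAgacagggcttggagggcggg
Atf3 (chr1:191183416-191183463, minus strand, 110 bases before the start): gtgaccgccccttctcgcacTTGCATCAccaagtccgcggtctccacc
Fgf21 (chr7:45615602-45615649, minus strand, 139 bases before the start): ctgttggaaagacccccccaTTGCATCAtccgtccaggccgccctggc
Pycr1 (chr11:120643824-120643871, minus strand, 103 bases before the start): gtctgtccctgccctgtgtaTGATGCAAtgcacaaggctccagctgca
Asns (chr6:7693210-7693252, minus strand, 23 bases before the start): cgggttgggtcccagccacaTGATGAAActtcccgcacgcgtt

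The 6 genes with the letters differed by -1.10 (Chac1), -0.88 (Nupr1, a small stress-induced chromatin protein), -1.34 (Atf3, an early stress transcription factor), -2.58 (Fgf21), -0.57 (Pycr1) and -0.35 (Asns) on the log2 scale. Of these, Fgf21 passed the filter only through the method where it is high, so it had to differ. Genes without the letters in this window, such as Trib3 (-1.21) and Ddit3 (-1.15), were lower as well.

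Aminoacyl-tRNA synthetases of the cytosol, which charge tRNAs with amino acids, divided into 2 sets. Of 23 tested, 12 were lower and 9 higher, with a median of -0.13. The lower set held Gars (-0.52), Vars (-0.47), Cars (-0.41), Wars (-0.41), Sars (-0.35), Iars (-0.30), Nars (-0.36) and Aars (-0.31). Gars stood at 7.64 and 7.73 against 8.24 and 8.17 log2 RPKM. The higher set held Hars (0.27), Kars (0.16), Qars (0.19), Rars (0.24), Farsb (0.20), Dars (0.20) and the scaffold proteins Aimp1 (0.41) and Aimp2 (0.21) of the multi-synthetase complex. In the 10-library model 4 were lower and none higher. The 17 mitochondrial synthetases held 4 higher (23.5%) and 2 lower (11.8%), against 22.7% and 20.7% of all features. The lower ones were Vars2 (-0.41) and Nars2 (-0.28), and Vars2 alone was called in the 10-library model.

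Serine, glycine, threonine and folate metabolism moved both ways. Of 28 tested, 12 were higher and 8 lower, and the 10-library model called 2 higher and 4 lower. Tdh, the threonine dehydrogenase that feeds glycine and acetyl-CoA production in mouse ES cells, stood at 7.15 and 7.18 against 6.22 and 6.35 log2 RPKM, a rise of 0.89 ± 0.06. Gcsh of the glycine cleavage system (0.41), the methionine adenosyltransferase Mat2a (0.30) and the folate receptor Folr1 (0.40) were also higher. The lower members included the serine synthesis genes named above and the mitochondrial folate enzymes Shmt2 (-0.67), Mthfd2 (-0.54), Mthfd1l (-0.35) and Aldh1l2 (-1.23). Of the 8 lower members, 6 are also ATF4 list members.

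**Figure D2:**
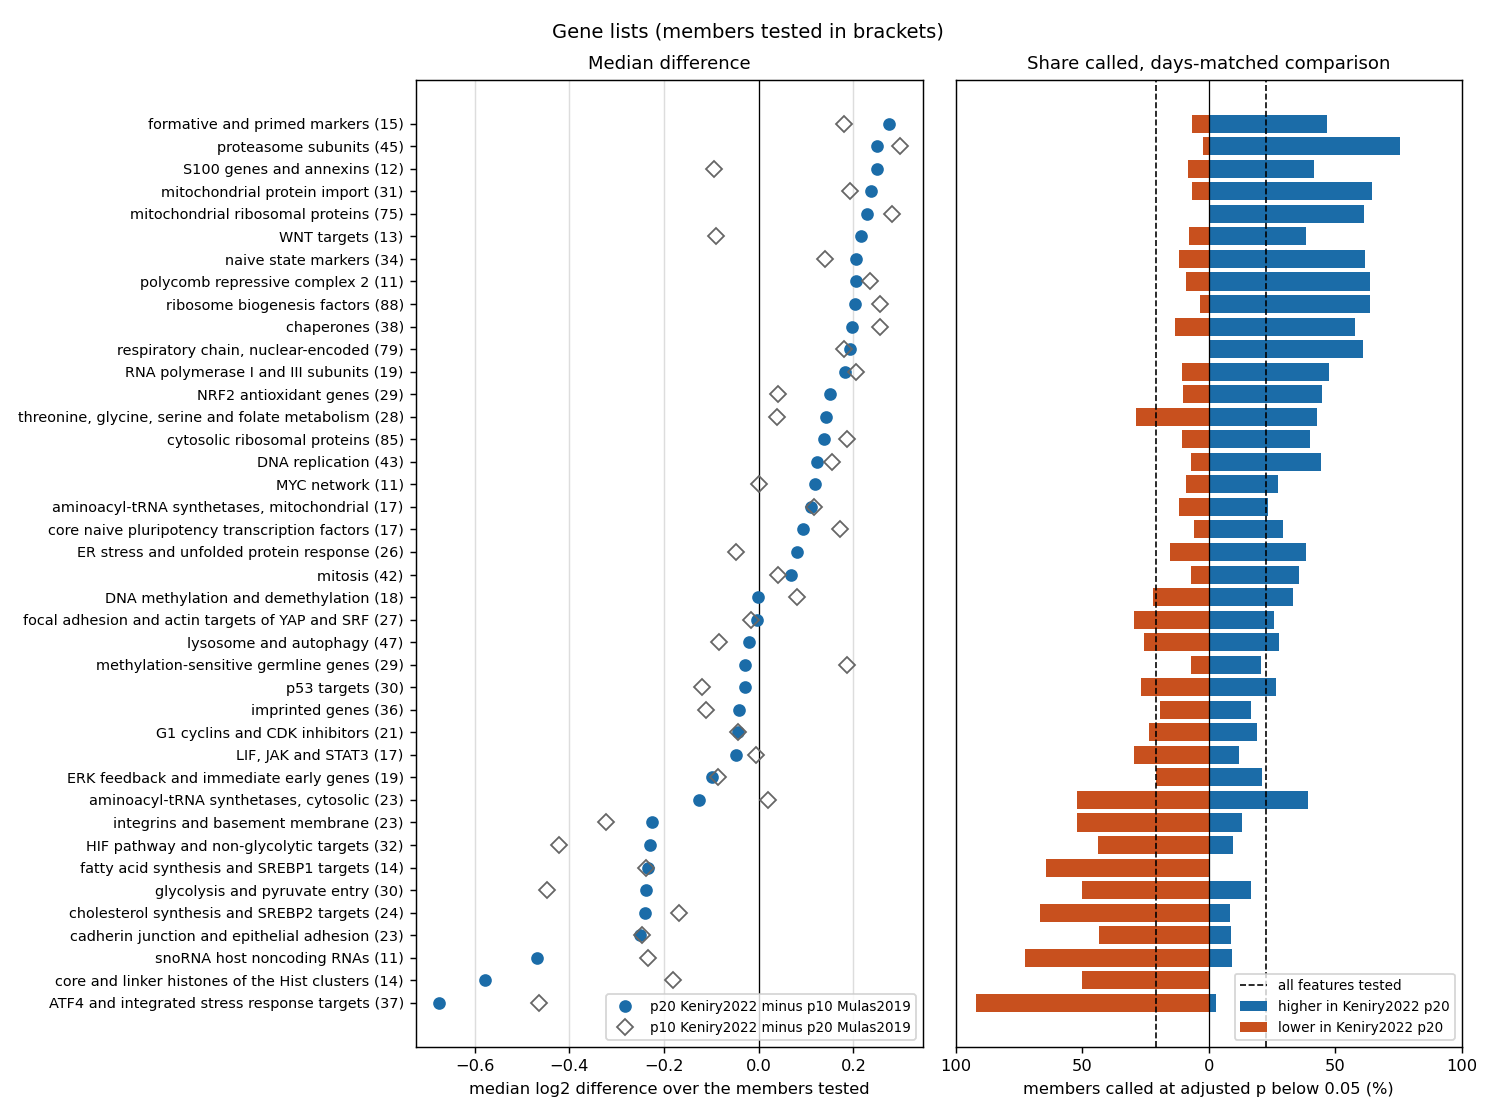
Left, median log2 difference over the members tested of each gene list, filled circles for Keniry2022 p20 minus Mulas2019 p10 and open diamonds for Keniry2022 p10 minus Mulas2019 p20, the cultured libraries not otherwise used. Right, percentage of members called higher (blue) or lower (orange) in the days-matched comparison, with dashed lines at the 22.7% and 20.7% of all features tested. ATF4 targets lie lowest at -0.67 and 91.9% lower, and proteasome subunits have the largest share higher at 75.6%.

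HIF targets outside glycolysis were lower as a group, though by less than ATF4 targets. HIF is stabilised when oxygen falls and switches on genes for glycolysis, vessel growth and collagen processing. Of 32 tested, 14 were lower, 3 were higher and the median was -0.23, which was -0.0861 without replicate 2 of Keniry2022 p20 and -0.3229 without its replicate 1. In the 10-library model 4 were lower and none higher. P4ha2, a collagen prolyl hydroxylase, differed most among those called, by -1.54 ± 0.14 (-0.07 and 0.06 against 1.68 and 1.41 log2 RPKM). Ndufa4l2, a gene induced in hypoxia, stood at 3.67 and 3.47 against 4.70 and 4.64. Bhlhe40, a transcriptional repressor of the clock and hypoxia responses, stood at 4.84 and 4.71 against 5.85 and 5.73, and the oxygen sensors Egln1 and Egln3 were 0.76 and 0.61 lower. Bnip3, which acts in mitophagy, was 0.48 lower. The 3 higher members included the HIF subunits themselves, Hif1a (0.20) and Epas1 (0.36), with the demethylase Kdm3a (0.13).

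The core of the hypoxia response element, ACGTG on either strand, was present before the start of 11 of 24 matched HIF list members (45.8%), 11 of 27 matched glycolysis members (40.7%) 16.5% of all genes and 22.9% of the tested features that matched. The HIF list holds known targets and also members of the pathway itself, such as Hif1a. The glycolysis list also holds genes of pyruvate entry, such as Pdhb. Known HIF targets were among the genes listed, so these shares were to some degree chosen with them. Windows of the 3 HIF list members with the letters and the largest falls are shown in the same way, all matches in capitals.
P4ha2 (chr11:54100826-54100870, plus strand, 78 bases before the start): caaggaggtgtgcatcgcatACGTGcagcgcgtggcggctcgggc
Egln1 (chr8:124949298-124949342, minus strand, 68 bases before the start): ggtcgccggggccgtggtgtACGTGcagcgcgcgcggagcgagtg
Fam162a (chr16:36071618-36071662, minus strand, 81 bases before the start): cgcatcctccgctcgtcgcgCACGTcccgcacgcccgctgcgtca

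Many glycolysis genes were lower and some genes of pyruvate entry into mitochondria were higher. Of 30 members tested, 15 were lower and 5 higher (3 and 2 in the 10-library model), with a median of -0.24 that was -0.1409 without replicate 2 of Keniry2022 p20. The glucose transporters Slc2a1 and Slc2a3 were 0.48 and 0.56 lower, Slc2a1 from 7.88 and 7.75 to 7.39 and 7.28 log2 RPKM. Hexokinase Hk2 (-0.40), glucose phosphate isomerase Gpi1 (-0.55) and the phosphofructokinases Pfkl (-0.56) and Pfkp (-0.52) fell together. Lactate dehydrogenase Ldha was 0.28 lower, from 9.34 and 9.32 log2 RPKM. Gapdh was 0.62 lower, at a level of 2.18 and 2.11 against 2.74 and 2.79 log2 RPKM that is low for this gene. Its many processed copies may share its reads, which was not tested, so its value is uncertain. In the other direction, Pdha1 (0.65) and Pdhb (0.37), subunits of pyruvate dehydrogenase, and Brp44l (0.68), a subunit of the mitochondrial pyruvate carrier, were higher. X-linked Pdha1 stood at 6.65 and 6.67 against 5.96 and 6.05 log2 RPKM.

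Many nuclear-encoded subunits of the respiratory chain were slightly higher. Of 79 tested, 48 were higher and 0 lower by limma at an adjusted p under 0.05, and the median was 0.19, with 31 not called and Cox7b2, given above, the 1 member at least 2-fold higher. Sdhd of complex II stood at 7.16 and 7.07 against 6.78 and 6.80 log2 RPKM, Ndufs1 of complex I was 0.30 higher, and Atp5o and Atp5g3 of the ATP synthase were 0.32 and 0.36 higher. In the 10-library model none of the 79 was called. The group is thus read from the 8-library model alone, where 60.8% were higher against 22.7% of all features.

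Mitochondrial ribosomal proteins had a similar share. Of 75 tested, 46 were higher and 0 lower, with a median of 0.23 and called rises between 0.16 and 0.52. Mrpl18 (0.46), Mrpl11 (0.44), Mrpl17 (0.40) and Mrpl46 (0.35) had the smallest p, and Mrpl11 stood at 4.64 and 4.63 against 4.22 and 4.17 log2 RPKM. Mitochondrial protein import, tested over 31 genes, had 20 higher and 2 lower, among them the intermembrane import receptor Chchd4 (0.42) and the channel paralogue Tomm40l (0.78), with Tomm34 (-0.35) and Hspa9 (-0.22) lower. None of either list was called in the 10-library model. All 13 features encoded by mitochondrial DNA had 0 reads in every library and were not analysed here.

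Proteasome subunits had the highest share of members higher. Of 45 tested, 34 were higher (75.6%) and 1 lower, Psme1 (-0.36), whose partner in the PA28 activator, Psme2, was 0.37 higher. The median was 0.25. ATPase subunits of the cap, Psmc3 (0.34), Psmc2 (0.30) and Psmc1 (0.28), rose by nearly the same amount as the catalytic core subunits Psmb5 (0.26), Psmb6 (0.29) and Psmb7 (0.28). Psmc3 stood at 6.85 and 6.85 against 6.50 and 6.51 log2 RPKM. None of the 45 was called in the 10-library model.

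Factors that build ribosomes were often higher, and ribosomal proteins less evenly so. Of 88 ribosome biogenesis factors, 56 were higher and 3 lower, with a median of 0.20 (4 higher and none lower in the 10-library model). The H/ACA protein Nhp2 stood at 7.76 and 7.79 against 7.21 and 7.25 log2 RPKM, a rise of 0.55 ± 0.04, and the assembly factors Nip7 (0.49), Ebna1bp2 (0.43) and Pno1 (0.46) followed. Of 85 ribosomal proteins, 34 were higher and 9 lower, with a median of 0.14, but in the 10-library model none was higher and 2 were lower, and the median was 0.0427 under quantile normalisation. The lower ones included Rpl10a (-0.59), Rpl9 (-0.80) and Rpl12 (-0.46), and the higher ones Rpl7l1 (0.42) and Rpl15 (0.42). Many ribosomal protein genes have processed copies that may share their reads, which was not tested, so single members are uncertain. Of 19 subunits of RNA polymerases I and III, 9 were higher and 2 lower, and the alternative subunits Polr3g (0.51) and Polr3gl (-0.58) differed in opposite directions, the only 2 called in the 10-library model. Polr3g is the form typical of pluripotent cells.

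Chaperones that fold newly made proteins were mostly higher. Of 38 tested, 22 were higher and 5 lower, with a median of 0.20, among them Hsph1 (0.53), Dnaja1 (0.46), the mitochondrial pair Hspe1 (0.31) and Hspd1 (0.24), and Cct8 (0.26) of the cytosolic ring. The stress-inducible co-chaperone Bag3 was 0.80 lower. Endoplasmic reticulum genes had 10 higher and 4 lower of 26, with the luminal chaperone Hspa5 (0.34) and the disulphide isomerases Pdia3 (0.33) and Pdia6 (0.33) higher, and Herpud1 (-0.64) and Sel1l (-0.40) of the degradation branch lower. The 10-library model called 2 higher and none lower of the chaperones and 2 higher and 1 lower of the endoplasmic reticulum genes.

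Of 17 core pluripotency factors tested, 5 were higher (29.4%), 1 was lower (5.88%) and 11 were not called, with a median of 0.09. Of all features tested 22.7% were higher and 20.7% lower. The 10-library model called 3 higher and 1 lower. Nanog stood at 8.81 and 8.78 log2 RPKM under Keniry2022 p20 and at 8.73 and 8.67 under Mulas2019 p10 (difference 0.09 ± 0.05, adjusted p = 0.165). Esrrb stood at 6.49 and 6.55 against 6.49 and 6.53, and the groups overlapped. Sox2, on chromosome 3, stood at 7.70 and 7.57 against 7.63 and 7.69 and overlapped as well. Pou5f1 was 0.32 ± 0.04 higher (8.64 and 8.67 against 8.29 and 8.37, adjusted p = 0.000832), and Zfp42, which encodes Rex1, was 0.24 ± 0.04 higher. Neither of the last pair was called in the 10-library model.

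Larger differences were found in other factors, among them Nr0b1, Gbx2 and Klf4. Nr0b1, which encodes the Oct4-binding repressor Dax1, stood at 6.54 and 6.63 against 5.62 and 5.82 log2 RPKM, a rise of 0.87 ± 0.07. Gbx2 was 0.82 ± 0.14 higher at lower levels of 2.50 and 2.96 against 1.80 and 2.01. Klf4 was the 1 factor that fell, by -0.64 ± 0.06, from 5.94 and 5.75 under Mulas2019 p10 to 5.18 and 5.23 under Keniry2022 p20. These 3 were also called in the 10-library model. Nr0b1 is X-linked. The factors Klf2 (0.17), Klf5 (-0.07), Tfcp2l1 (0.14), Tbx3 (-0.11), Tcl1 (0.09), Sall4 (-0.05), Prdm14 (0.03) and Nr5a2 (0.01), were not called.

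Markers of the naive state outside this core were more often higher. Of 34 tested, 21 were higher and 4 lower, with a median of 0.21, and the 10-library model called 8 higher and none lower. Besides Trh and Tdh they included Fbxo15 (0.52, from 7.87 and 7.81 to 8.36 and 8.35 log2 RPKM), the paired chromatin factors Dppa2 (0.47) and Dppa4 (0.56), L1td1 (0.43) and Rex2 (0.56). Lefty2 (0.62), an antagonist of Nodal, and Nodal itself (0.31) were both higher. The 4 lower members were alkaline phosphatase Alpl (-0.32), the receptor Kit (-0.41), Pecam1 (-0.36) and the demethylase Tet1 (-0.29).

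Formative and primed markers, which rise as naive cells leave that state, were not lower. Of 15 tested, 7 were higher, 1 lower and the median was 0.27, which was 0.1425 without replicate 1 of Mulas2019 p10. The de novo DNA methyltransferases accounted for 3 of the 7. Dnmt3b stood at 5.20 and 5.13 against 4.21 and 4.48 log2 RPKM, a rise of 0.82 ± 0.13. Dnmt3l was 0.73 ± 0.14 higher, and Dnmt3a was 0.47 ± 0.08 higher. Foxd3 (0.96), Etv5 (0.36), Zic2 (0.27) and Pim2 (0.29) made up the rest, and the keratin Krt18 (-1.01) was the lower one. Dnmt3b, Dnmt3l and Etv5 were the 3 called in the 10-library model.

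The wider set of DNA methylation genes had 6 higher and 4 lower of 18 (2 and none in the 10-library model), and a median near 0. These shares were 33.3% and 22.2%, against 22.7% and 20.7% of all features. The cofactors Hells (0.32), Zfp57 (0.35) and Trim28 (0.20) rose with the methyltransferases. The dioxygenases Tet3 (-0.75) and Tet1 were lower. Dnmt1, the maintenance enzyme, was -0.11 ± 0.04 apart at an adjusted p of 0.0479, close to the threshold. Of 29 germline genes whose promoters are sensitive to methylation, 6 were higher (20.7%) and 2 lower (6.9%), or 2 and 1 in the 10-library model. Of all features 22.7% were higher and 20.7% lower. The fall of Stra8 (and of Dmrtb1, -0.87) was thus not shared by the list. Tex19.1 stood at 6.30 and 6.37 against 5.85 and 5.88 log2 RPKM, Tex101 was 1.45 higher at low levels, and Dazl was 0.36 higher. Of 11 Polycomb repressive complex 2 genes, 7 were higher and 1, Phf1 (-0.81), lower, and Eed alone was called in the 10-library model. Eed, a core subunit, stood at 6.92 and 6.89 against 6.29 and 6.29 log2 RPKM, a rise of 0.62 ± 0.04, whereas the catalytic subunit Ezh2 differed by -0.07 and was not called.

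Genes downstream of the pathways that 2i and LIF act on were mixed. Of 13 WNT targets, 5 were higher and 1 lower (2 and none in the 10-library model). The median of 0.22 was 0.1145 without replicate 1 and 0.3599 without replicate 2 of Mulas2019 p10. Sp5 stood at 1.39 and 1.41 against 0.14 and -0.26 log2 RPKM, a rise of 1.46 ± 0.17. The feedback inhibitors Notum (0.68), Axin2 (0.41) and Apcdd1 (0.53) and the pseudoreceptor Bambi (0.32) were also higher, and Tcf7l2 was 0.50 lower. Of these 6, Sp5 and Notum were called with any 1 library left out, and the other 4 were not. Of 19 genes of ERK feedback and the immediate early response, 4 were higher and 4 lower (3 and 2 in the 10-library model), shares near the 22.7% and 20.7% of all features. Myc, which 2i keeps low, stood at 0.27 and 1.18 against -1.18 and -1.41 log2 RPKM, a rise of 2.02 ± 0.28, while Mycn, the more abundant family member, was 0.21 higher at 5.24 and 5.11 against 4.95 and 4.98. Jun (-0.76), Jund (-0.60), Ier3 (-0.56) and Dusp9 (-0.53) were lower. Of 11 MYC network genes 3 were higher (27.3%, near the 22.7% of all features) and 1 lower (9.09%). Myc alone was called in the 10-library model, and it passed the filter only through the method where it is high, so it had to differ. Of 17 LIF pathway genes, 11.8% were higher and 29.4% lower, against 22.7% and 20.7% of all features. The 2 higher genes were the co-receptor Il6st (0.20) and Socs2 (0.33), and the 5 lower included Stat5b (-1.01), Tyk2 (-0.41) and Bcl3 (-0.47). Stat5b and Tyk2 were the members called in the 10-library model. Stat3 (-0.07), Socs3 (0.10) and Lifr (0.04) were not called.

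Lipid synthesis was lower. Of 24 cholesterol synthesis and SREBP2 target genes, 16 were lower and 2 higher, with a median of -0.24. Lss (-0.63) and Dhcr7 (-0.65), late enzymes of the pathway, fell most among those with the smallest p. Dhcr7 stood at 4.18 and 4.08 against 4.77 and 4.79 log2 RPKM. The 2 higher genes were Hmgcs1 (0.36), at an early step, and X-linked Ebp (0.52). Of 14 fatty acid synthesis genes, 9 were lower and none higher, among them the desaturases Scd1 (-0.46), Scd2 (-0.39), Fads1 (-0.36) and Fads2 (-0.23), Acaca (-0.31), Fasn (-0.17) and the regulator Srebf1 (-0.29). In the 10-library model 2 cholesterol genes and 1 fatty acid gene were lower, and 1 cholesterol gene was higher.

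Many genes of the matrix and of cell junctions were lower in the suspension cultures of Keniry2022 p20. Of 23 integrin and basement membrane genes, 12 were lower and 3 higher, with a median of -0.23 that was -0.1316 without replicate 2 of Mulas2019 p10. Laminin Lama1 stood at 1.36 and 1.79 against 2.63 and 2.58 log2 RPKM, Col4a1 and Col4a2 were 0.60 and 0.96 lower, and fibronectin Fn1 was 0.40 lower from 7.86 and 7.94. Integrins Itgb4 (-1.18), Itga6 (-0.32), Itga5 (-0.47) and Itga3 (-0.72) fell, while Itgb5 rose by 0.53. Of 23 cadherin junction and epithelial genes, 10 were lower and 2 higher, with a median of -0.25. That median was -0.0895 without replicate 2 of Keniry2022 p20 and -0.0046 with a stricter filter on low values. Claudins Cldn6 (-0.89), Cldn3 (-0.94) and Cldn7 (-1.37), desmoplakin Dsp (-0.89), the plakophilin Pkp3 (-1.22) and keratins Krt18 (-1.01) and Krt19 (-0.68) were lower. E-cadherin (Cdh1, 0.10) was not called, and its partners Jup (0.55) and Ctnnb1 (0.21) were higher. The focal adhesion and actin targets of YAP and SRF had 7 higher and 8 lower of 27, with a median near 0. These shares, 25.9% and 29.6%, were near the 22.7% and 20.7% of all features. Vim (0.84) rose, Tpm2 (-0.91) and Actg1 (-0.40) fell, and the YAP targets Ctgf (0.08) and Cyr61 (-0.08) were not called. The 10-library model called 1 integrin gene higher and none lower, 5 junction genes lower and 1 higher, and 2 actin genes in each direction.

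Of 29 NRF2 genes, 13 were higher and 3 lower (3 and 2 in the 10-library model), with a median of 0.15. The glutathione transferase Gsta3 was 1.42 ± 0.11 higher, and with Cbr3 it had the largest differences of the list. Nqo1 (0.51), Prdx1 (0.48) and Fth1 (0.36) rose too, whereas Hmox1 was 0.33 lower. Of 43 DNA replication genes 19 were higher and 3 lower, with a median of 0.12, and 1 was called in the 10-library model. Of 42 mitosis genes 15 were higher and 3 lower and none was called there, and the median of 0.068 lay between -0.0369 and 0.1354 across the alternatives. The securin gene Pttg1 stood apart with 4.97 and 4.82 against 4.01 and 4.12 log2 RPKM, a rise of 0.83 ± 0.07, while Mki67 was 0.33 lower. Among 21 G1 regulators 4 were higher and 5 lower (1 and 1 in the 10-library model), shares near those of all features. The CDK inhibitor Cdkn1b (-0.59) and the kinase Cdk6 (0.66) were among those called. The 30 p53 targets held 8 higher and 8 lower (2 and 1 in the 10-library model), shares near those of all features, with Ccng1 (0.42), Trp53inp1 (0.42) and Ei24 (0.53) higher and Ddb2 (-0.51) lower. The 47 lysosome and autophagy genes (13 higher and 12 lower, or 2 and 1 in the 10-library model) and the 36 imprinted genes (6 and 7, or 1 and 1) had called shares near those of all features and medians near 0. Mest (0.57) and Cdkn1c (0.74) were the imprinted genes that rose most among those called, and Igf2r (-0.60), Peg12 (-0.82) and Grb10 (-0.76) fell.

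Several noncoding host genes and histone genes were lower. Of 11 host genes of small nucleolar RNAs, 8 were lower and 1 higher (2 and none in the 10-library model), with a median of -0.47, for example Snhg12 (3.85 and 3.77 against 4.73 and 4.60 log2 RPKM) and Gas5 (-0.31). Of 68 core and linker histone genes of the Hist clusters 14 were tested, of which 7 were lower and none higher, with a median of -0.58. Without replicate 1 of Keniry2022 p20 only 3 were lower, without replicate 2 of Mulas2019 p10 the median was -0.2548, and the 10-library model called 1. The lower genes included Hist1h2ag (0.45 and 0.45 against 1.13 and 1.17 log2 RPKM) and Hist1h4d (-1.23). Malat1, given above, fell as well, and Neat1 stood at 0.21 and 0.10 against 0.50 and 0.48 log2 RPKM and was not called.

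The methods were also compared in the 4 cultured libraries that the days-matched comparison does not use, Keniry2022 p10 and Mulas2019 p20, which match neither in days nor in passages. These share no library with it, though they come from the same lines. Both comparisons were made in 1 fit with the same filter and the same estimated spread for each gene. Their calls are therefore not independent of each other. Here 5216 features (44.8%) differed, 21.9% of all tested being higher and 22.8% lower under Keniry2022. Of the 5060 features called in the days-matched comparison, 4642 (91.7%) had the same sign, against 78.4% of all features tested, and 3304 (65.3% of the 5060 and 63.3% of the 5216) were called in the same direction. Of the 252 called features that were at least 2-fold apart, 238 had the same sign. Of the 14 named genes that rose most, 13 had the same sign and 11 were called, Klhl13 being the exception in sign (-0.37). Of the 14 that fell most, 14 had the same sign and 12 were called. Stra8 (-1.59), Vegfa (-1.12), Zfp459 (1.22) and Nr0b1 (0.84) had almost the same size in both, whereas Trh (1.53) was smaller.

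**Figure D3:**
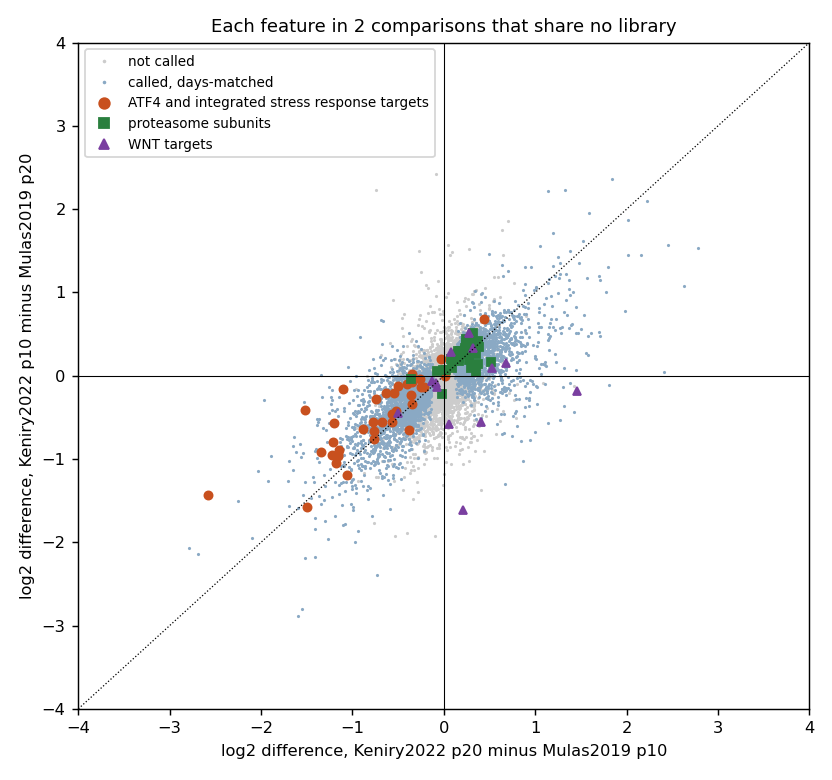
Each dot is a feature, with its log2 difference in the days-matched comparison (x axis) and in the remaining cultured libraries (y axis), light blue where called in the former and grey where not. ATF4 targets (orange circles), proteasome subunits (green squares) and WNT targets (purple triangles) are drawn larger, and the dotted line marks equal differences. ATF4 targets lie mostly in the lower left and proteasome subunits in the upper right, while WNT targets scatter above and below 0 on the y axis.

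Most of the larger group medians had the same sign in the remaining libraries. ATF4 targets had a median of -0.46 in the remaining libraries with 26 of 37 lower, against -0.67 and 34 in the days-matched comparison. Glycolysis (-0.45) and HIF targets (-0.42) were further down there, with 20 of 30 and 18 of 32 lower. Mitochondrial ribosomal proteins (0.28, 50 of 75 higher), proteasome subunits (0.30, 34 of 45 higher) and the respiratory chain (0.18, 43 of 79 higher) were nearly equal. Histone genes were not, with a median of -0.18 and 3 of 14 lower against -0.58 and 7 of 14. Medians above 0.2 in the days-matched comparison turned below 0 for WNT targets (-0.09) and for S100 genes and annexins (-0.09). Smaller medians also changed sign, from 0.08 to -0.05 for endoplasmic reticulum genes, from -0.13 to 0.02 for cytosolic synthetases and from -0.03 to 0.19 for germline genes.

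The difference between the 2 method differences, which equals the p20 minus p10 change summed over both methods, was called for 132 features (1.13%), 97 (0.832%) in the positive direction and 35 (0.3%) in the negative. The count was fragile. It was 0 in the 10-library model and between 1 and 149 when 1 library was left out, and 2299 features had an unadjusted p under 0.05. Tnfrsf19, a WNT-responsive receptor, had the smallest p. It stood at 3.42 and 3.37 log2 RPKM under Keniry2022 p20 and 3.44 and 3.41 under Mulas2019 p20, but at 2.84 and 2.85 under Keniry2022 p10 and 2.79 and 2.85 under Mulas2019 p10 (difference of differences 1.16 ± 0.08, adjusted p = 0.00255). At the same passage the methods thus lay close together for this gene, and its days-matched difference of 0.58 stood against -0.58 in the remaining libraries. Axin2 (0.41 and -0.56) and Klhl13 (1.31 and -0.37) also had opposite signs, and Cdx1, with 0.22 and -1.62, had most of its difference in the remaining libraries. The fall of Chac1 (-1.10 against -0.15) and the rises of Pttg1 (0.83 against 0.03), Ebp (0.52 against 0.06) and Ccng1 (0.42 against -0.03) were largely seen at matched days. Of the 132 features, 90 were also called in the days-matched comparison.

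Chromosome 3 had the largest median difference of the autosomes. Its 531 tested features had a median difference of 0.11, with 28.4% called higher and 9.42% lower, against 22.7% and 20.7% of all features. Medians of the other autosomes lay between -0.043 and 0.030 except for chromosome 13, where it was 0.086. The share called higher was not particular to chromosome 3. Chromosome 13 had 28.7% higher and 16.1% lower, and chromosome 18 had 27% higher and 14.2% lower. Relative to the mean of the 8 cultured libraries, chromosome 3 was at 0.124 in replicate 1 of Keniry2022 p20 but at -0.027 in its replicate 2, and at -0.092 and -0.042 in the Mulas2019 p10 libraries. Without replicate 1 of Keniry2022 p20 the median was 0.034 and 13.9% were called higher, whereas without its replicate 2 the median was 0.183 and 33.9% were called higher. The other library with a high value, 0.167, was replicate 2 of Mulas2019 p20. Both are the Y-expressing library of their group. DNA copy number was not analysed here.

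**Figure D4:**
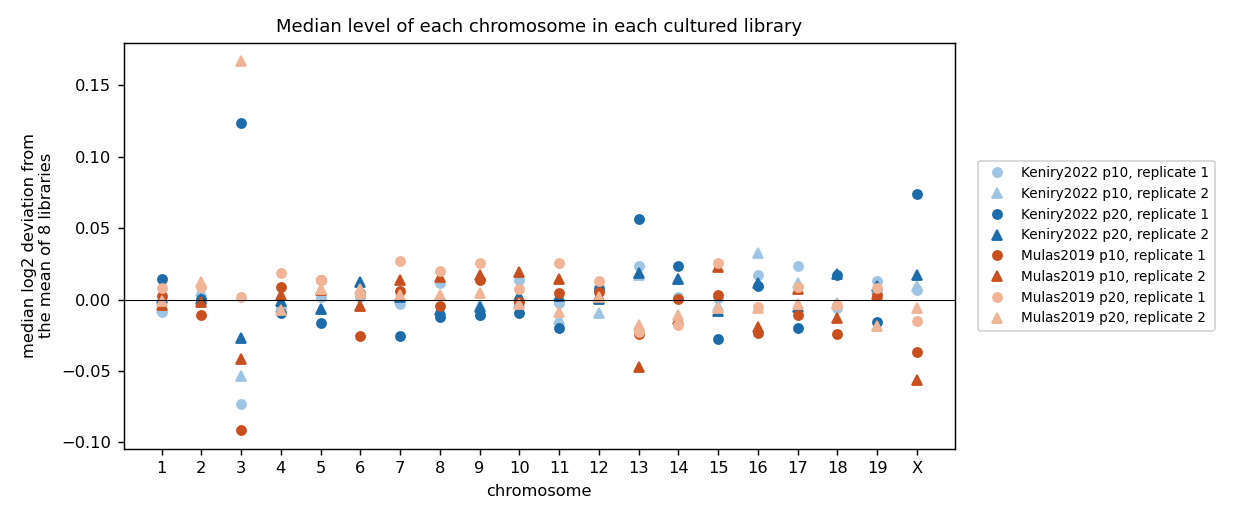
Median log2 deviation of the features of each chromosome (x axis) from the mean of the 8 cultured libraries (y axis), in each library. Colours mark method and passage, with circles for replicate 1 and triangles for replicate 2. Replicate 1 of Keniry2022 p20 (0.124) and replicate 2 of Mulas2019 p20 (0.167) lie far above the others on chromosome 3.

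The values on chromosome 3 touched few of the groups described. Leaving out its members changed the counts little, to 33 of 35 ATF4 targets lower, 44 of 70 mitochondrial ribosomal proteins higher and 31 of 42 proteasome subunits higher. The S100 genes and annexins, with 6 of 12 tested members there, were the exception. Of 12 tested, 5 were higher and 1 lower with a median of 0.25, and the 10-library model called 1 higher and none lower. Without chromosome 3 only 1 of 6 was higher, Anxa1 (2.16, at low levels of 1.17 and 0.95 against -1.59 and -0.60 log2 RPKM), and the median was -0.046. Anxa1 passed the filter only through the method where it is high, so it had to differ. Among named genes, Ccbl2 lies on chromosome 3. The X chromosome also leaned upwards, with a median of 0.083 over 391 features and 29.2% higher against 9.72% lower. Its deviation was 0.074 and 0.018 in the Keniry2022 p20 libraries and -0.037 and -0.056 in the Mulas2019 p10 libraries, and without replicate 1 of Keniry2022 p20 the median was 0.055 with 18.3% higher. Klhl13, Nr0b1, Pdha1 and Ebp are among the X-linked genes named above.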

How the data were processed

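RNA-seq libraries were made from 2 male mESC lines, and 10 libraries in 5 groups were deposited as 1 table of 25965 features. The authors deposited log2 values, which the table's name calls log CPM, but whose lowest values depend on feature length. They are log2 RPKM in which 0 reads were entered as 0.9 reads, and 6624 features had 0 reads throughout. Per the study, alignment to mm10 used HISAT2 and quantification SeqMonk. TopHat2 2.0.12 and bcl2fastq appear instead in the processing notes of the submitters, so the aligner behind these values is uncertain. No source used here states the annotation release or the strand setting, so reads of the 7479 features that overlap another, antisense genes included, are uncertain. Library totals, recovered from the lowest values, were 24053996 to 30236823 reads.

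Features with a log2 value above 0 in at least 50% of the 8 cultured libraries were tested with limma 3.58.1 in R 4.3.3 on the deposited values (4 group terms, eBayes with intensity trend, two-sided, Benjamini-Hochberg over all features tested, threshold 0.05), with Keniry2022 p20 minus Mulas2019 p10 as the contrast. Differences are on the log2 RPKM scale and understate those of low features. An exact permutation test of 2 against 2 cannot go below p = 0.333, so p-values rest on the shared spread of the 4 groups, and measure only the spread between these lines. In simulated data, 55% of changes of 0.5 and 94% of changes of 1 on the log2 scale were recovered among 11557 features, with 6 false calls. Only 99 tested features were changed at each size there, far fewer than the 43.4% of features called in the data. The simulated shares therefore do not carry over to this comparison. Named genes are the 14 largest called differences in each direction with a mean of at least 3 log2 RPKM and no overlap between groups, predicted names left out, with up to 4 members of each list by p, list members whose role is described, all core pluripotency factors and 4 Y-linked genes. Some genes that the rule names are not reported here. The members and the gene lists were chosen with earlier results of these data known. The same holds for leaving p0 out of the main fit. Promoters are the 250 bases before the outermost RefSeq start (GRCm38.p6). Pairing was checked by the correlation of replicate 1 minus replicate 2 across features. It was 0.514 to 0.63 among Keniry2022 p10 and both Mulas2019 groups, which come from the same lines, but -0.43 between Keniry2022 p20 and Mulas2019 p10. The main test uses no block, so it ignores the pairing by line. The spreads of the groups it shares are not independent of each other. Alternatives were other libraries in the fit, filters, scalings, a block, weights, no trend, 1 added before the log, each library left out, and, added after seeing the data, a crossed block and limma-voom on estimated reads.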

Additional observations from a re-analysis of the deposited data

Results flagged for a closer look

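For 17 of the genes named, the method difference in the days-matched comparison differed from that in the remaining cultured libraries by the test of the difference itself (limma, adjusted p under 0.05 over all features tested). Values are the difference of the 2 log2 differences. Higher at matched days than in the remaining libraries were CR555305.1 (0.81), Klhl13 (1.68), Ccbl2 (0.81), Gbx2 (1.10), Ebp (0.46), Ccng1 (0.45), Sp5 (1.64), Axin2 (0.97), Pttg1 (0.79), Tnfrsf19 (1.16), Folr1 (0.394), Cdx1 (1.83) and Neat1 (1.15). Lower were Chac1 (-0.95), 1500012F01Rik (-0.45), Hist1h2ag (-0.93) and Tet1 (-0.47). The adjusted p was 0.00255 for Tnfrsf19, 0.00973 for Cdx1 and between 0.0338 and 0.0478 for the rest. None of these calls held in the model with all 10 libraries.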

How the results depend on the processing

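The days-matched comparison called 5060 features, and between 3976 and 5242 under the other planned filters, scalings, weights, trend, pseudocount and 4-library settings. It called 743 with all 10 libraries and 3429 to 4809 with 1 library left out, the lowest without Mulas2019 p10 replicate 1. With the replicate number as a block it called 4940, and with the numbers of Keniry2022 p20 crossed, a setting chosen after seeing the data, 5101. Among named genes, the block ended the calls of Dnmt1 (adjusted p = 0.0518), Nars2 (0.0508), Pim2 (0.0512), Bambi (0.0516) and Krt19 (0.0632) and made one for Klf2 (0.0315), and the crossed block ended those of Dnmt1 (0.0635), Bambi (0.0506) and Kdm3a (0.0512). The remaining libraries gave 5216 features, 694 with all 10 libraries and 3327 to 5216 with 1 left out. The passage component gave 132 features, 0 with all 10 libraries, 1 without a filter, 86 after median centring, 6 without the intensity trend, 42 with the replicate block, 330 with the crossed block, 357 by voom and 1 to 149 with 1 library left out. By voom, also chosen after seeing the data, 41.3% of 4649 days-matched calls were higher, against 52.3% of 5060.

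Of 303 genes followed across the alternatives, 280 were called, and none of those changed sign. With all 10 libraries, 109 of the 276 of them with a value were called. The call was lost in at least 1 of the 8 fits with a library left out for 39 of them, namely Aimp1, Aimp2, Apcdd1, Atf4, Axin2, Bambi, Cdkn1c, Dars, Dazl, Dmrtb1, Dnmt1, Epas1, Fads2, Fars2, Farsb, Fasn, Gas5, Grb10, Hist1h2bj, Hist3h2a, Ier3, Il6st, Itga3, Jund, Kdm3a, Krt19, Mlx, Mlxip, Mycn, Nars2, Pim2, Psme2, Qars, Rars, S100a6, Socs2, Tcf7l2, Trim28 and Zic2. Among the others, under quantile normalisation Nanog was at -0.0565, Cth at -0.1123, Cdh1 at -0.0602, Esrrb at -0.1155, Nr5a2 at -0.0466 and Prdm14 at -0.0302. By voom Esrrb was at -0.0289, Cth at -0.0251, Nr5a2 at -0.0309 and Prdm14 at -0.0077. With 1 library left out, Sox2 ranged from -0.0885 to 0.0413, Esrrb from -0.0232 to 0.0378, Klf5 from -0.2218 to 0.0876, Prdm14 from -0.0109 to 0.0626, Sall4 from -0.1424 to 0.0358, Tcl1 from -0.0444 to 0.2303, Cth from -0.0186 to 0.0394, Stat3 from -0.1527 to 0.0199 and Lifr from -0.0868 to 0.1622. Of 28 lists with a median of at least 0.1 in size, 0 changed sign under any alternative, but the cadherin list came to -0.0046 under the stricter filter. Quantile normalisation also lowered the medians of the respiratory chain to 0.0958, the proteasome to 0.156, ribosome biogenesis to 0.116, mitochondrial import to 0.1286, DNA replication to 0.0408 and Polycomb genes to 0.084, and moved cytosolic synthetases to -0.267. The cause of the changes was not tested. With 2 libraries a group, small differences rest on the spread shared by the groups.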
